A study of Mus musculus with 2 samples.

Results

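The genes described here are the cytosolic ribosomal protein genes, taken from 1 single-cell library of embryonic mouse lung epithelium. They were selected by symbol (Rpl or Rps followed by a digit, with Rplp0, Rplp1, Rplp2 and Rpsa, and without -ps) and by a floor of 1000 unique molecular identifiers (UMIs, one per captured RNA molecule) summed over the kept cells. The floor uses measured values, so the levels of the members are a description of what was selected. Of 96 symbols that matched, 86 reached the floor, among 4848 genes of any kind that did so and 31053 genes listed. The 86 hold 77 core proteins of the ribosome, 46 of the large subunit and 31 of the small one. They also hold 5 paralogs (Rpl22l1, Rps27l, Rps27rt, Rpl36al and Rpl7l1) and 4 genes that only share the symbol: the kinases Rps6kb1, Rps6ka3 and Rps6ka6, and the binding protein Rps19bp1. Just inside the floor were Rps6ka6 with 1068 UMIs and Rps6ka3 with 1275. Just outside it were the kinases Rps6kb2 with 671, Rps6ka1 with 564 and Rps6ka4 with 317.

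The series is about the LEF/TCF transcription factors, the nuclear effectors of Wnt signalling, in lung epithelial progenitors. Epithelial cells were purified by flow cytometry from mouse lung at embryonic day 15 and run on the 10x Genomics droplet platform, with 1 library of control genotype and 1 of LEF/TCF knockout genotype. The labels name no allele, Cre driver, strain, sex or number of embryos. Expression was analysed for the control library, and that of the knockout library was not analysed here. The 2 barcode lists, of 3568 and 5342, shared 29 barcodes. In the control library 3457 cells with 53639813 UMIs were kept, with a median of 12826 UMIs and 3049 genes per cell. Every value below rests on this single library, so there is no replicate spread and no test. The 95% intervals given reflect the counting of UMIs alone, and replicate spread is not in them.

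A ribosome is built from ribosomal RNA and one copy of most of these proteins, the P-stalk proteins Rplp1 and Rplp2 being an exception, so a growing cell makes the proteins in matched amounts. Their messenger RNAs belong to the 5′ TOP class. They begin with a cytosine and a run of pyrimidines, through which mTOR signalling and the protein Larp1 control their translation together. Ribosomal protein transcripts are among the most abundant in growing embryonic tissue.

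The pyrimidine run can be seen in the DNA about the annotated starts. RefSeq promoter sequences (build GRCm38.p6) matched 65 of the 86 members, 57 of them core genes. The letters searched were a C followed by 6 or more C or T, on the strand of the gene, from 30 bases before to 25 bases after a start. The run was found in 34 of the 57 core genes, or 59.6% (95% exact binomial interval 45.8 to 72.4%), against 28.1% of the 27025 genes in the table. A run that began within 5 bases of a start was found in 18 of the 57, or 31.6%, against 6.68% of all genes. Among the matched genes of a ribosome biogenesis list, the run within 5 bases was found in 1 of 44, or 2.27%. Among 15 matched translation genes outside the symbol rule it was found in 5, or 33.3%, and the run anywhere in the window in 11, or 73.3%, shares like those of the core genes. The 3 matched members that are no ribosomal proteins had no run in the window. The letters CCGGAAG, or CTTCCGG on the other strand, a core of ETS factor motifs, stood anywhere in the 300 bases of 24 of 57 core genes, or 42.1%, against 9.93% of all genes. Mitochondrial ribosomal protein genes (37.7%) and ribosome biogenesis genes (34.1%) held these letters at shares within the interval of the core genes (29.1 to 55.9%). A match is a description of letters, and annotated starts can lie some bases from the start a cell uses.

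The following windows show the run in core genes of both subunits whose run begins close to the annotated start, with the run in capitals. They were chosen after the matches were seen. They lie at chr4:86857343-86857397 (minus strand), chr17:33955641-33955695 (minus), chr3:90213624-90213678 (minus), chr7:109519165-109519219 (plus), chr7:4792935-4792989 (plus) and chr11:114668550-114668604 (plus), in that order.
Rps6: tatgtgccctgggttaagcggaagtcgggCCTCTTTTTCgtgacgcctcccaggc
Rps18: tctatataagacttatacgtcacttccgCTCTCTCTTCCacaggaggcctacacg
Rps27: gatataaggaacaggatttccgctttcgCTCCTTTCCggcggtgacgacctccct
Rpl27a: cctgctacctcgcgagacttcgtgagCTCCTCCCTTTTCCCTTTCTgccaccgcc
Rpl28: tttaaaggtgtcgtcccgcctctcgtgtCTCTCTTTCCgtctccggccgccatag
Rpl38: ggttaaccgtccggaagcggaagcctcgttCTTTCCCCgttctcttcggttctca

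Shown next, also chosen after their values were seen, are 3 members whose values depart from the others below. The window of the first pair held no such run, and that of the last held it further upstream. They are Rps2 (chr17:24720033-24720087, plus), the paralog Rpl36al (chr12:69184043-69184097, minus) and Rpl5 (chr5:107900498-107900552, plus), whose run starts 20 bases before the annotated start, with the kinase gene Rps6kb1 (chr11:86544783-86544837, minus) shown beside them.
Rps2: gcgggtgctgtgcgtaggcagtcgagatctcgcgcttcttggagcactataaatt
Rpl36al: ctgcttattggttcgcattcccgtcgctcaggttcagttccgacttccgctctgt
Rpl5: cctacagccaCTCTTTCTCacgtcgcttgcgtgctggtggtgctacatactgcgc
Rps6kb1: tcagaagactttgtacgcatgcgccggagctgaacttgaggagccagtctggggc

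The 86 members held 17390500 UMIs, 32.42% of all UMIs of the kept cells, and 72 of the 100 genes with the most UMIs were members. Levels are given as UMIs per 1000000 UMIs of the same cells (CPM). A 3′ UMI is counted once per captured molecule whatever the transcript's length, so no length correction was made. The core genes ran from 983.4 CPM (Rpl13a) to 9853 (Rpl41, the smallest protein of the set), a 10.02-fold range, with a median of 4069 and quartiles of 3153 and 5057. After Rpl41 came Rpl13 with 8255 CPM, Rps27a, a ubiquitin fusion, with 7422, Rpl32 with 7269 and Rps19, a gene mutated in Diamond-Blackfan anaemia, with 7107. The counting intervals of these 5 neighbours did not overlap, and no replicate was there to test the order. At the low end Rpl5 had 1093 CPM and Rpl27 1445. The small subunit genes had a median of 4637 CPM and the large subunit genes one of 3754. The P-stalk genes lay at 6161 CPM for Rplp0, and Rplp1 and Rplp2 held between 3934 and 5251 CPM in the 4 classes of cells described below. The members under 1000 CPM other than Rpl13a were 3 paralogs and the 4 genes that are no ribosomal proteins, from Rpl36al at 519.9 CPM down to Rps6ka6 at 19.91. Those 4 genes together held 10915 UMIs.

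**Figure D1:**
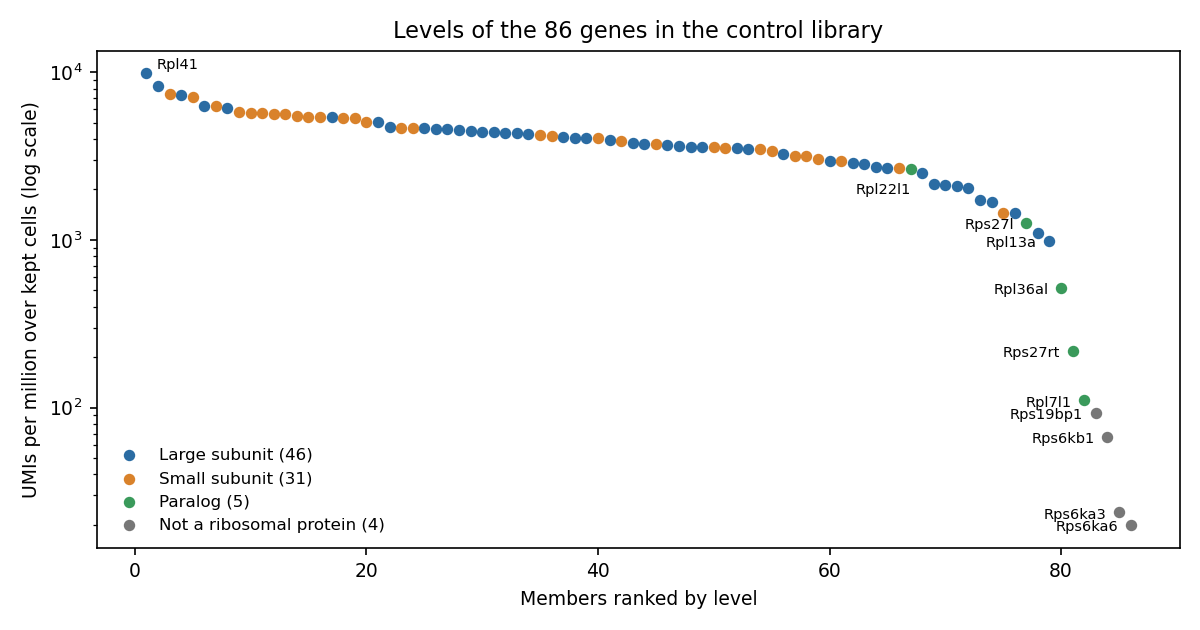
CPM over all kept cells (vertical axis, log scale) for the 86 members ranked by level (horizontal axis), each point 1 gene, coloured by role. The core genes of both subunits lie within a 10.02-fold range, from Rpl41 at 9853 to Rpl13a at 983.4, and most paralogs and the genes that are no ribosomal proteins lie below.

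Some genes have close copies among which reads cannot be fully assigned. The 9 symbols with -ps, part of them annotated as processed pseudogenes and part as protein coding, held 19783 UMIs, and adding them moved the share from 32.42% to 32.46%. Rps27rt, a gene of 1 exon on chromosome 9 with 11710 UMIs, kept to between 5.662 and 6.195% of its pair with Rps27 in all 4 classes, so its values are uncertain in this way.

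Cells were clustered without any member among the genes used, and the clusters were named from marker genes. Of the kept cells, 1208 were distal progenitor-like, 740 airway-like, 619 alveolar type 2-leaning and 819 alveolar type 1-leaning. Airway-like cells had 145 CPM of Sox2, against 5.5 in distal cells. The distal class was defined against airway-like cells (Sox9 at 172 and 38.7 CPM), and its markers did not set it apart from the type 2-leaning class. Sox9 (179 CPM), Id2 (1270 against 1040), Bmp4 (96.3 against 76.2), Etv4, Mia and Mycn were higher in type 2-leaning than in distal cells. Spry2 (33.0 against 56.1 CPM), Etv5 and Shh were lower. Type 1-leaning cells had Sox9 at 120 and Bmp4 at 23.9 CPM. Sftpc was at 1430 CPM in distal, 2040 in type 2-leaning and 1510 in type 1-leaning cells. The type 2 markers Sftpb and Sftpa1 were higher in the type 2-leaning class, at 73.9 and 78.2 CPM against 34.5 and 36.1 in distal cells. Lamp3, Napsa, Cxcl15, Lpcat1, Il33 and Muc1 were higher too. Abca3 was lower in the type 2-leaning class (8.04 against 10.1 CPM), as were Slc34a2, Lyz2 and S100g, with few UMIs in both classes. Distal cluster 4, described below, also met Sftpb, Abca3 and Napsa at 1.5-fold over all other cells. The type 1-leaning name is the weakest. It rests on a 1.5-fold marker limit set after the clusters had been seen, with Ager at 90.0 CPM against 42.2 in distal cells. At 1.5-fold over all other cells 6 of 14 type 1 markers passed, and at 2-fold only Ager and Clic5 did, under the 3 needed for a name. Other type 1 markers were lower there than in distal cells, such as Pdpn (39.6 and 46.5 CPM), Akap5 (30.8 and 36.2) and Vegfa (7.22 and 8.59). Aqp5, a defining type 1 marker, had 0 UMIs there. Of the type 1 markers that passed at 1.5-fold, Emp2, Clic5 and Clic3 (19.4 against 17.5 CPM) were nearly as high in airway-like cells. Ager, Rtkn2 and Col4a3 were lower in airway-like cells. The airway markers Krt15, Upk3a and Foxj1 also passed at 1.5-fold in the type 1-leaning class. Krt15 was at 13.9 CPM there against 1.65 in distal cells, Sox2 at 19.2 against 5.5 and Scgb3a2 at 17.5 against 6.05. Sox2 and Scgb3a2 were far higher in airway-like cells. Epcam, the general epithelial marker, lay between 443 (distal) and 968 CPM (type 2-leaning) in the 4 classes and at 8.21 CPM in 43 mesenchymal-like cells. A cluster of 28 cells with a median mitochondrial share of 0.0573% stayed unnamed, and its member share was 38.9%.

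Among the 4 named epithelial classes, the ribosomal protein share of UMIs was highest in distal progenitor-like cells, at 36.2%, and lowest in alveolar type 2-leaning cells, at 29.61%. Airway-like cells had 33.09% and alveolar type 1-leaning cells 30.78%. The counting intervals of the 4 classes did not overlap, for example 36.18 to 36.23% in distal and 33.06 to 33.12% in airway-like cells. The distribution over cells was broad in distal and airway-like cells, with SDs of 4.669 and 5.182 percentage points against 0.4735 and 0.497 from counting alone. It was narrower in the alveolar type 2-leaning (2.171) and type 1-leaning (2.887) classes. The 5th to 95th percentile ran from 27.97 to 43.58% in distal cells and from 26.47 to 33.4% in type 2-leaning cells, so single cells of the classes overlapped.

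**Figure D2:**
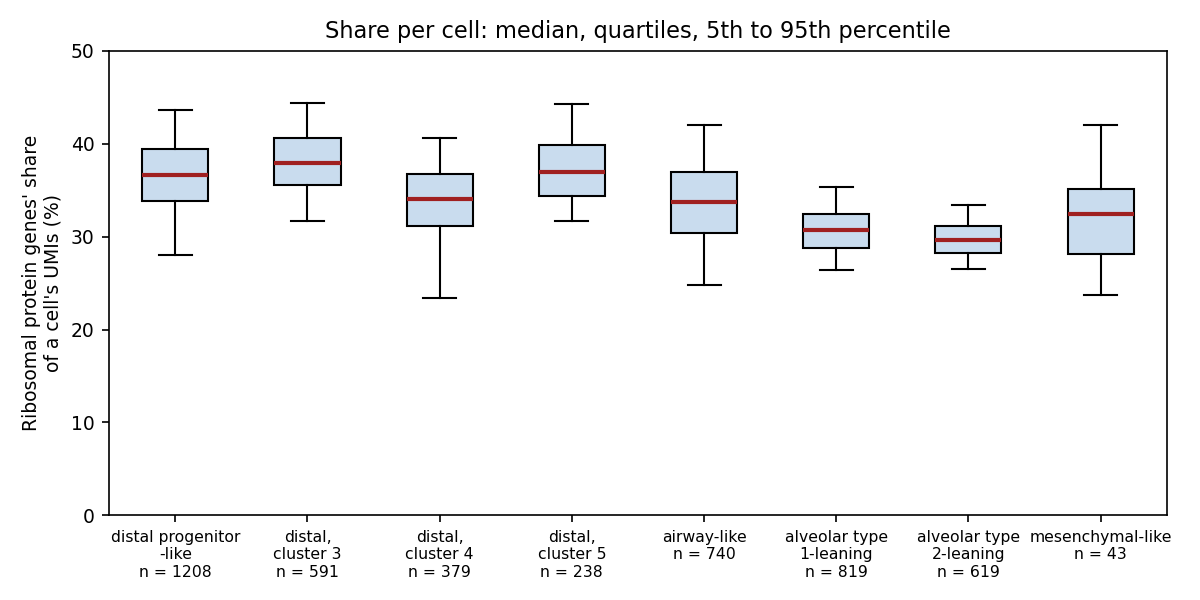
Share of each cell's UMIs from the 86 genes (vertical axis, %) by class, and by cluster within the distal class. Boxes show quartiles, red lines medians, and whiskers the 5th to 95th percentiles over cells. The distal median of 36.67% lies above those of the airway-like (33.76%), type 1-leaning (30.67%) and type 2-leaning (29.62%) classes, and cluster 4 sits below the other distal clusters.

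The distal class was not uniform. Its clusters 3, of 591 cells, and 5, of 238 cells led by Xist, had shares of 37.33% and 36.65%. Cluster 4, of 379 cells led by cell-cycle genes such as Mki67 and Ube2c, had 33.74%, close to the airway-like class. Neither cluster 4 nor cluster 5 had a distal marker among its 10 leading genes. At 1.5-fold over all other cells cluster 4 met the distal markers Mia and Bmp4, and cluster 5 met none. Cluster 4 also held 1016 UMIs of the platelet markers Pf4, Ppbp and Itga2b, a summed 256.2 CPM against at most 2.198 in the other epithelial clusters. Of these UMIs 1007 lay in 1 cell, and 8 of its 379 cells held any. Without those 8 cells its share was 33.86%. Of 5 immune markers 4 had UMIs in cluster 4, with a summed 20.42 CPM against 13.46 to 25.55 in the other epithelial clusters, and Ptprc was at 0 in all of them. In all 4 classes, cells without a UMI of the proliferation genes Mki67 or Top2a had a higher share than cells with one. The shares without and with such a UMI were 38.01% and 35.65% in distal cells, 34.69% and 31.46% in airway-like, 30.22% and 29.45% in type 2-leaning and 31.61% and 30.57% in type 1-leaning cells. Cells with such a UMI were also deeper, with medians of 11717.5 against 9150.5 UMIs in the distal class.

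Depth moved with class. The median was 10760 UMIs in distal, 9298 in airway-like, 16154 in type 2-leaning and 18038 in type 1-leaning cells, with median mitochondrial shares of 3.07%, 3.27%, 2.14% and 2.41%. At matched depth distal cells had the highest share and type 2-leaning cells the lowest in each of the 4 bands from 8000 to 30000 UMIs. Between 8000 and 11000 UMIs the shares were 37.93% in 455 distal, 34.0% in 227 airway-like, 29.47% in 34 type 2-leaning and 32.05% in 101 type 1-leaning cells. Between 14000 and 20000 UMIs they were 35.06%, 32.29%, 29.7% and 30.14%. Below 5000 UMIs the order of distal and airway-like cells turned, with 28.35% in 29 and 31.69% in 46 cells. Those 29 distal cells had a median mitochondrial share of 6.758%. Of them 23 were of cluster 4, with a member share of 26.02%, so the turn rests mostly on that cluster. Across cells, the share and log2 UMIs had a Pearson correlation of -0.26 over all 3457 cells and of -0.009 over the 1208 distal cells, the cells sharing 1 library. The value near 0 does not mean an even share, since the distal clusters went different ways with depth. Cluster 3 fell from 41.04% between 5000 and 8000 UMIs to 36.93% between 11000 and 14000. Cluster 4 rose from 26.02% below 5000 UMIs to 35.14% between 8000 and 11000, and had 34.38% between 11000 and 14000.

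**Figure D3:**
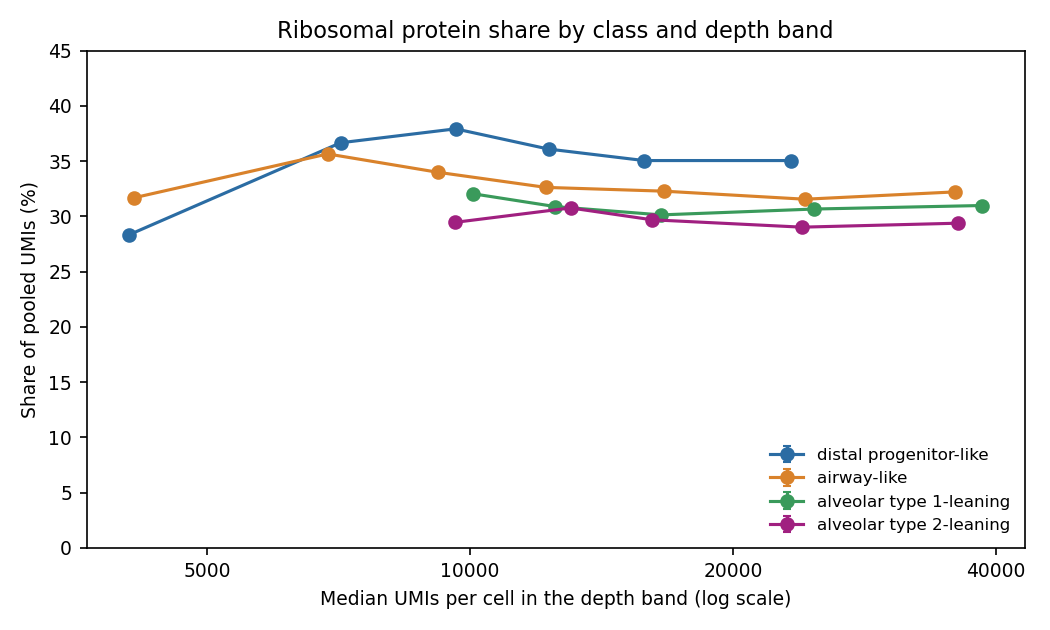
Share of pooled UMIs from the 86 genes (vertical axis, %) against the median UMIs per cell of each depth band (horizontal axis, log scale), for the 4 classes. Error bars are 95% counting intervals, smaller than most points. From 8000 to 30000 UMIs, distal cells lie above the other classes, while under 5000 UMIs they lie below airway-like cells. Of the 29 distal cells under 5000 UMIs, 23 were of cluster 4.

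Droplets with several cells were not removed. Cells with at least 4 Xist UMIs and a UMI of a Y-linked gene, a pair that points to RNA of more than 1 embryo in a droplet, made up 18.19% of type 1-leaning, 6.081% of airway-like, 3.231% of type 2-leaning and 2.897% of distal cells. Without them the type 1-leaning share was 0.8441 times the distal share, against 0.8504 with them. Their member shares lay near those of their classes, for example 31.26% in the 149 type 1-leaning cells of this kind.

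Gene by gene, nearly all core genes had a lower CPM in the type 2-leaning class. A CPM is a part of the UMIs of the same cells, so a lower CPM is not by itself a lower count per cell. Type 2-leaning cells were deeper, with a median of 16154 UMIs against 10760 in distal cells. The members held 3423639 UMIs in 619 type 2-leaning cells and 5269871 in 1208 distal cells. Of the 77 core genes, 76 had a lower CPM in type 2-leaning than in distal cells, 75 of them with the whole counting interval below 1, and the median ratio was 0.8112. Of the 86 members, 50 were at least 1.2-fold lower and 2 at least 1.2-fold higher. Over all 4848 genes, 14.6% were 1.2-fold lower and 40.3% 1.2-fold higher, with a median ratio of 1.098. Members take up 32.42% of all UMIs, so a lower share of theirs raises the CPM of the rest. With the UMIs of other genes as the total, the median of all genes was 0.9953, and 78 members were 1.2-fold lower, against 27.7% of all genes under that total. The lowest core members were Rps28 (3146 CPM in distal and 2307 in type 2-leaning cells, ratio 0.7334), Rps27 (0.7371), Rps29 (0.7382) and Rps20 (0.7405), all of the small subunit. The paralog Rps27rt had 0.6771.

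Rpl5 was the 1 core gene above its distal level in type 2-leaning cells. It forms, with Rpl11 and the 5S ribosomal RNA, the particle that can bind Mdm2 and so links ribosome assembly to p53. Its level was 1009 CPM in distal, 1005 in airway-like, 1107 in type 1-leaning and 1244 in type 2-leaning cells. The type 2-leaning to distal ratio was 1.233 (1.205 to 1.262), against 0.9886 for the next core gene, Rpl7a. Between 8000 and 11000 UMIs it was 1.183 (1.065 to 1.31) and between 14000 and 20000 UMIs 1.283 (1.228 to 1.341). Its partner Rpl11 followed the majority, with 4994 CPM in distal and 4267 in type 2-leaning cells. Rpl7l1, a paralog of Rpl7 that acts in ribosome assembly, was also higher, at 93.42 CPM in distal and 124.0 in type 2-leaning cells (ratio 1.328, 1.232 to 1.431), while Rpl7 itself had a ratio of 0.9226.

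The type 1-leaning class gave a similar picture at a smaller size. There 75 of 77 core genes lay below their distal level, with a median ratio of 0.8409, and the exceptions were Rpl5 (1.098, or 0.9793 with the classes from marker sums described below) and Rpl7 (1.025). Of the 86 members, 34 were 1.2-fold lower and 1 was 1.2-fold higher, against 7.92% and 37.4% of all genes. With the UMIs of other genes as the total, 67 members were 1.2-fold lower, against 17.5% of all genes. The lowest members were the paralogs Rpl36al (645.4 CPM in distal and 456.8 in type 1-leaning cells, ratio 0.7077) and Rps27rt (0.7515), followed by Rps21 (0.7519), Rpl41 (0.7527) and Rps26 (0.7596). Highest after Rpl7l1 (1.263) was the kinase gene Rps6kb1 (1.165), with 71.86 against 61.69 CPM. The type 1-leaning and type 2-leaning comparisons share the distal cells, so the likeness of their lists is not independent evidence.

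Airway-like cells differed less and less evenly. Of the 77 core genes 70 lay below the distal level, with a median ratio of 0.92. Of the members, 10 were 1.2-fold lower and 0 were 1.2-fold higher, against 16.0% and 38.2% of all genes, so the count of lower members was below the background share. With the UMIs of other genes as the total, 23 of 86 members were lower by that fold, against 20.4% of all genes, so on that scale the count was above the background share. Rps2, a small subunit protein near the entry of the messenger RNA channel, was the lowest core gene. It had 6904 CPM in distal and 4755 in airway-like cells, a ratio of 0.6887 (0.6809 to 0.6966). Its levels were 5887 CPM in type 2-leaning and 5410 in type 1-leaning cells, so airway-like cells were the lowest of the 4 classes. In all 3 distal clusters Rps2 stood above the airway-like level, at 7357, 6279 and 6657 CPM. At matched depth the ratio was 0.6841 between 8000 and 11000 UMIs and 0.6867 between 14000 and 20000 UMIs.

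The other members low in airway-like cells were of mixed kinds. Rpl36al, an intronless paralog of Rpl36a by its 1 annotated exon, had 645.4 CPM in distal and 394.0 in airway-like cells (0.6105, 0.587 to 0.6348), while Rpl36a had 2458 and 2271. Rps27l, a p53-responsive paralog of Rps27, had a ratio of 0.7762 while Rps27 itself held 3938 CPM in distal and 3962 in airway-like cells. Rpl38, needed for the translation of certain Hox messenger RNAs, had 0.7946, the P-stalk gene Rplp1 0.7971, and Rpsa 0.8041. Rps19bp1 (0.7746) and Rps6ka6 (0.778, 0.6347 to 0.9501) also passed the fold, from 311 distal UMIs in the second case. At the other end were the kinase gene Rps6ka3 (1.193, 1.009 to 1.408, from 346 distal UMIs), Rpl7l1 (1.13, 1.038 to 1.229) and Rps6kb1 (1.094, 0.9849 to 1.215). Next came the highest core genes, the X-linked Rps4x at 1.044 (6158 against 5898 CPM) and Rpl7 at 1.025. Rps4x went below 1 when cluster 4 was left out of the distal class, with 0.9852.

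**Figure D4:**
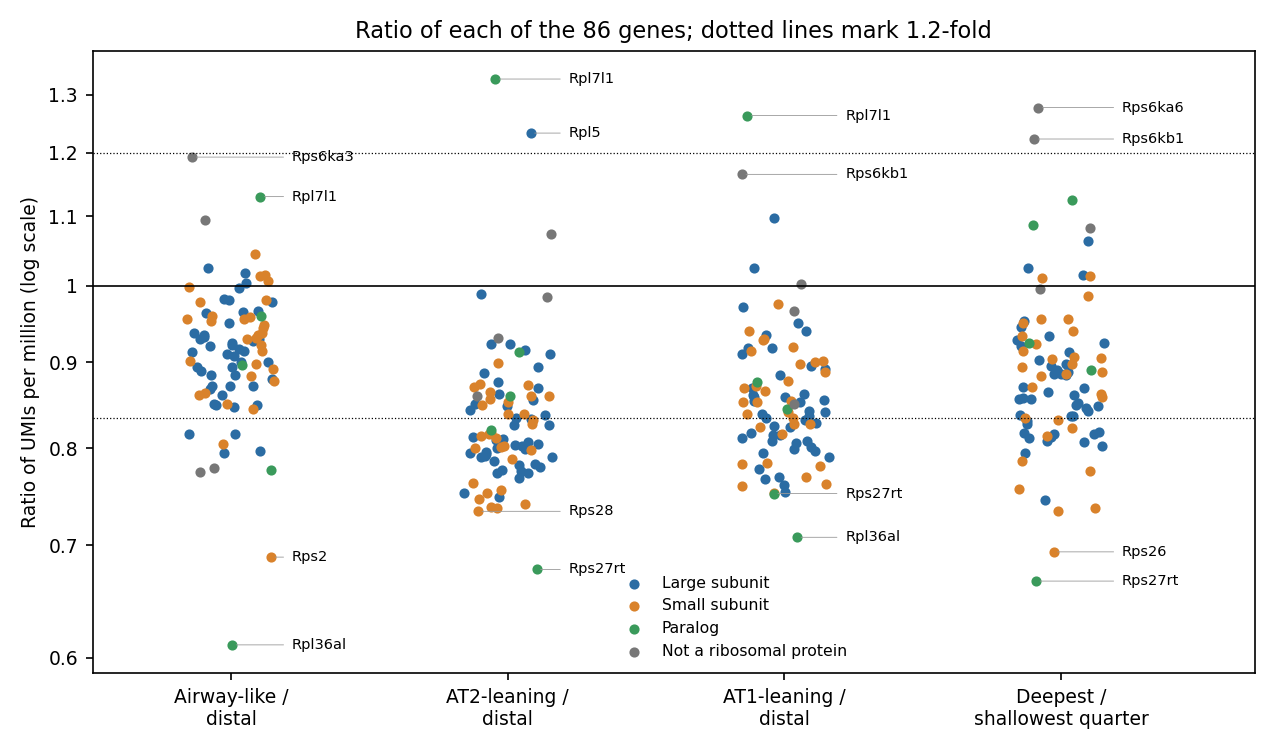
Ratio of CPM (vertical axis, log scale) for each of the 86 genes in the 3 class comparisons and in the deepest against the shallowest cells, coloured by role, with the 2 highest and 2 lowest genes named. Dotted lines mark 1.2-fold. Most points lie below 1 in each column, Rps2 (0.6887) and Rpl36al (0.6105) stand apart below in the airway-like column, and Rpl7l1 and Rpl5 stand above 1.2 in the type 2-leaning column.

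These differences hold for classes drawn from clusters. When each cell was instead put in the class whose summed marker genes stood highest over their mean, the airway-like share was 0.9894 times, the type 2-leaning share was 0.9717 times and the type 1-leaning share 0.9741 times the distal share, and 3, 0 and 0 members were 1.2-fold lower. In that division 660 of 3457 cells lay within 1.2-fold of a second class. With cluster 4 as the only distal cells, 22 members were 1.2-fold lower in type 2-leaning and 16 in type 1-leaning cells, and the airway-like share was 0.9806 times the distal one. The member counts of these 2 divisions are given without the share of all genes, so they are not set against a background. With a coarser clustering, at resolution 0.3, the alveolar-leaning cells fell into a distal class of 2641 cells, and the airway-like share was then 1.025 times the distal one.

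By depth, the share was 35.53% in the shallowest cells (up to the lower quartile of 9273 UMIs) and 31.07% in the deepest (from the upper quartile of 18178 UMIs), a ratio of 0.8745. Of the members, 23 were 1.2-fold lower in the deepest cells and 2 were 1.2-fold higher, against 7.69% and 31.6% of all genes. With the UMIs of other genes as the total, 50 members were lower by that fold, against 14.1% of all genes. Within a class the difference was smaller, with ratios of 0.9409 in distal, 0.9212 in airway-like, 0.9629 in type 2-leaning and 0.9783 in type 1-leaning cells, and with 2, 9, 4 and 3 members 1.2-fold lower. These within-class counts are given without the share of all genes, so they are not set against a background. The lowest genes were Rps27rt (0.6664), Rps26 (4515 CPM in the shallowest and 3132 in the deepest cells, 0.6937), Rps29 (0.7337), Rps28 (0.7363) and Rpl31 (0.7448). The highest were the kinase genes Rps6ka6 (1.277, from 104 UMIs in the shallowest cells) and Rps6kb1 (1.223), Rps27l (1.125), Rpl7l1 (1.087) and Rps6ka3 (1.083). The 111 barcodes that were removed had a member share of 22.42%, below every class.

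Core genes with shorter coding sequences tended to have the lower ratios in the alveolar-leaning classes and in deep cells. Coding lengths from GENCODE M21 ran from 75 bases (Rpl41) to 1257. Across the 77 core genes, log2 coding length and the log2 ratio had a Pearson correlation of 0.65 for type 2-leaning against distal cells, 0.67 for type 1-leaning against distal cells and 0.67 for the deepest against the shallowest cells. These are descriptions over genes of 1 library, and the 3 comparisons share cells. The 39 genes of at most 456 coding bases had a median ratio of 0.79 in type 2-leaning cells and the 38 longer ones 0.8513. For airway-like against distal cells the correlation was 0.16. At matched depth, between 14000 and 20000 UMIs, it was 0.58 for type 2-leaning, 0.6 for type 1-leaning and 0.24 for airway-like cells. Other genes showed it too. Among 2834 other genes with coding sequences no longer than the longest core gene, it was 0.49 for type 2-leaning, 0.47 for type 1-leaning and 0.26 for airway-like against distal cells. Over all 4672 other genes with a coding length it was -0.018, 0.09 and 0.093.

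**Figure D5:**
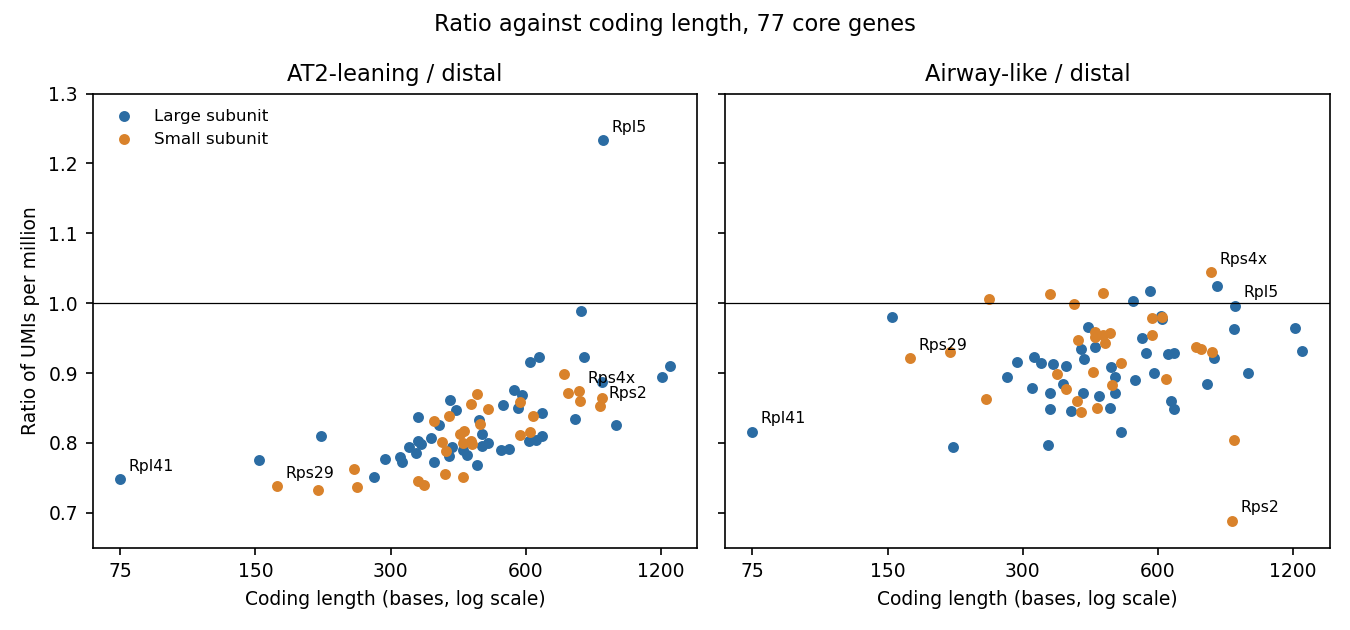
Ratio of CPM (vertical axis) against coding length in bases (horizontal axis, log scale) for the 77 core genes, in alveolar type 2-leaning (left) and airway-like (right) against distal cells, coloured by subunit. On the left short genes such as Rpl41 (0.7479) lie lower than long ones (correlation 0.65), with Rpl5 apart above. On the right there is little relation (0.16), with Rps2 apart below.

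Genes that work with the ribosome did not all move with its proteins. Fau, a fusion gene that encodes a ribosomal protein outside the symbol rule, had a type 2-leaning to distal ratio of 0.7849, within the range of the core genes. Fau stood at 4363 CPM in distal and 3425 in type 2-leaning cells, and at 4538 in airway-like cells (ratio 1.04). The elongation factor genes Eef1a1 (0.8643), Eef2 (0.8468) and Eef1b2 (0.8534) were also below 1, while the elongation factor gene Eef1d was at 1.404 (492.4 against 691.4 CPM). Over the list of 22 translation genes outside the symbol rule, 4 were 1.2-fold lower and 5 were 1.2-fold higher, with a median of 1.01, against 14.6% and 40.3% of all genes and their median of 1.098. The higher ones included the initiation factor subunits Eif3m (204.8 against 362.2 CPM, ratio 1.769) and Eif3l (1.673), the nucleolar chaperone Npm1 (1.337) and the RNA-binding protein gene Hnrnpa1 (1.206).

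Ribosome biogenesis genes, which make ribosomal RNA and assemble the subunits, had higher levels in type 2-leaning cells. Of 43 tested, 36 were at least 1.2-fold higher and 1, the polymerase I factor Rrn3, was 1.2-fold lower, with a median ratio of 1.544. Over all genes 40.3% were higher and 14.6% lower, with a median of 1.098. Ncl, encoding nucleolin, had 553.0 CPM in distal and 927.2 in type 2-leaning cells (1.677). The box C/D core proteins Nop58 (96.99 to 252.6 CPM, 2.605) and Fbl (140.8 to 278.4 CPM, 1.977) were higher as well, as were the export adaptor Nmd3 (2.583) and the pseudouridine synthase Dkc1 (2.067). In type 1-leaning cells 25 of 43 were higher and 4 lower, with a median of 1.273, against 37.4% and 7.92% of all genes and their median of 1.102. In airway-like cells 17 were higher and 8 lower, with a median of 1.122, near the 38.2% and 16.0% of all genes and their median of 1.101. In the deepest against the shallowest cells 26 were higher and 0 lower, with a median of 1.256, so the list also moves with depth. There 31.6% of all genes were higher and 7.69% lower, with a median of 1.093. The 73 mitochondrial ribosomal protein genes tested, which serve a separate ribosome, had a median of 1.139 in type 2-leaning cells, with 31 higher and 2 lower. Over all genes 40.3% were higher and 14.6% lower, with a median of 1.098. The list was thus near the background in its count of higher genes and below it in that of lower genes.

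Among regulators of ribosome production and translation, Mycn had 57.26 CPM in airway-like, 72.47 in distal, 79.47 in type 1-leaning and 97.9 in type 2-leaning cells, an order unlike that of the ribosomal proteins. Eif4e, which binds the cap, had 218.1 CPM in distal and 321.5 in type 2-leaning cells (1.474). Larp1, the repressor of 5′ TOP messages, had 25.69 and 24.13 CPM (0.9392, 0.8014 to 1.1), a difference within counting error. Rps6kb1, the S6 kinase gene that the symbol rule picked up, had 61.69 and 66.16 CPM (1.073, 0.9727 to 1.182). Myc, Mycl, Mtor and Rptor stayed under 1000 UMIs and were not compared.

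Paralog pairs kept their balance to different degrees. Rpl22l1 held 60.62% of the UMIs of its pair with Rpl22, from 60.14% in type 2-leaning to 61.71% in airway-like cells, so the paralog was the more abundant of the pair in every class. Rps27l held 26.19% of its pair with Rps27 in distal cells, 21.5% in airway-like, 27.31% in type 1-leaning and 30.53% in type 2-leaning cells. Rpl36al held 20.79% of its pair with Rpl36a in distal, 14.78% in airway-like, 18.71% in type 1-leaning and 22.59% in type 2-leaning cells. Rpl7l1 held between 2.532 and 3.604% of its pair with Rpl7. The paralogs known from testis and muscle were near nothing. Rpl39l had 0 UMIs, and a limit of 3 counts allows up to 1.27e-05 of the Rpl39 UMIs, while Rpl3l and Rpl10l had 1 UMI each.

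Across cells the members moved together in some classes more than in others. With every cell thinned to 5000 UMIs, the median pairwise correlation of core genes was 0.23 in 1179 distal and 0.28 in 694 airway-like cells, against 0.075 in 619 type 2-leaning and 0.12 in 810 type 1-leaning cells. Counting noise lowers all of these values. Of the core genes Rpl5 followed the others least in each of the 4 classes (0.13 in distal cells) and Rpl32 most in distal cells (0.68). The variance over the mean had a median of 1.445 in distal cells for the core genes, where counting alone gives about 1, against 1.508 for the 78 other genes at 5 or more UMIs per thinned cell. Among the 76 core genes with that mean it was highest for Rps2 (2.696) and Rpl41 (2.663) and lowest for Rpl18 (1.133). This measure was not adjusted for the mean, which was 34.71 UMIs per thinned cell for Rps2 and 60.21 for Rpl41. Rpl29 came next, with 2.207 at a mean of 16.7.

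Outside the symbol rule, the genes whose thinned UMIs followed the summed members best over 3365 cells were Fau (Pearson 0.511), the ferritin gene Ftl1 (0.443), Eef1a1 (0.442), Tmsb10 (0.388), Tpt1 (0.385), Serf2 (0.311), Eef1g (0.308), Gm10076 (0.299), Fth1 (0.293) and Eef1b2 (0.293). Cells share a library and every gene shares the fixed total of 5000 UMIs, so these values describe likeness only. Within distal cells the first 3 were Eef1a1 (0.506), Ftl1 (0.47) and Fau (0.451).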

How the data were processed

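Raw UMI counts per gene and barcode were deposited by the authors for the control library. The submitters' processing notes name mm10, Cell Ranger and Seurat, the matrix was written by software version 3.0.1 per the file headers, and the aligner's settings and annotation are not given in the sources used here. Of 3568 barcodes, 3457 with at least 1000 genes and at most 10% mitochondrial UMIs were kept. No doublet caller was run. Clusters came from scanpy 1.11.5 and leidenalg 0.10.2 (2000 variable genes, 20 principal components, 20 neighbours, resolution 0.5, seed 0). All symbols that match the rule, also those under the floor or with -ps, and cell-cycle genes were left out. Pseudogenes under other names were not left out as a group. A cluster was named when at least 3 markers of a class, each with 10 or more UMIs, lay at 1.5-fold over other cells and 1 or more, and no fewer than of any other class, stood among its 10 leading genes. Unnamed clusters became distal progenitor-like with at least 3 distal markers, each with 10 or more UMIs, at 1.5-fold over airway-like cells. A further condition was that no other marker list, cycling aside, had more genes among the 10 leading genes than the distal list. The unnamed cluster of 28 cells met Sox9, Etv5, Mia and Sftpc but had the type 1 marker Clic3 among its leading genes. This naming rule was set after the clusters were seen.

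UMIs were summed per class and given as CPM, with exact Poisson, binomial (Clopper-Pearson) and conditional ratio intervals at the 95% level, checked on simulated counts. UMIs are molecules, but the intervals cover counting error only. With 1 library there was no test. A 1.2-fold limit served for counts. Promoter windows are RefSeq's. Named are, for each comparison, the 5 highest and 5 lowest members, the 5 members with the most and the fewest UMIs, P-stalk genes, paralog pairs, the 10 genes most like the summed members and genes of the lists. Other members named were chosen after their values were seen. Members, lists and limits were chosen with earlier results of these data known. Gene positions and coding lengths are from GENCODE M21 (GRCm38), matched by identifier for 86 of 86 members. One result on the translation list is not reported here. The marker counts of blood cells were added after seeing the data.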

Additional observations from a re-analysis of the deposited data

How the results depend on the processing

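The share of 32.42% became 32.39% with no filter on barcodes, 32.31% with at least 2000 genes and at most 5% mitochondrial UMIs, 34.6% in cells of at most 14000 UMIs, 33.22% as a mean over cells, 33.32% without mitochondrial UMIs, 31.92% for core proteins and 32.46% with -ps symbols. The ratios of the airway-like, type 2-leaning and type 1-leaning share to the distal share, in that order, were 0.9231, 0.8241 and 0.8403 in cells of at most 14000 UMIs, 0.8715, 0.7414 and 0.7839 with other genes' UMIs as the total, 0.9239, 0.8164 and 0.8428 as a mean over cells, 0.8905, 0.7939 and 0.8307 with clustering seed 1. They were 0.9371, 0.8458 and 0.8854 at resolution 0.8, 0.8922, 0.7962 and 0.8294 with members kept for clustering, 0.9894, 0.9717 and 0.9741 with classes from marker sums, 0.9125, 0.795 and 0.8315 without cells with a Mki67 or Top2a UMI. They were 0.8963, 0.777 and 0.845 between 8000 and 11000 UMIs, 0.921, 0.8471 and 0.8596 between 14000 and 20000 UMIs, 0.8914, 0.7977 and 0.8293 without cluster 4, 0.9806, 0.8775 and 0.9123 with cluster 4 as the distal class. The 2 depth bands, the 2 settings of cluster 4, the one without cells that hold Xist and a Y-linked UMI, and the depth comparisons within alveolar-leaning cells were chosen after seeing the data. At resolution 0.3 no cluster had an alveolar name, so those comparisons had no value, and the distal class took in 2641 cells. The airway-like ratio then reversed, to 1.025. With seed 1 the distal class fell from 1208 to 846 cells, and 394 cells were unnamed, against 28 in the main clustering. With members kept it held 865 cells, and 392 were unnamed. The ratios under these 2 settings thus do not rest on the same distal class. Without cells that hold Xist and a Y-linked UMI the type 1-leaning ratio was 0.8441. The ratio of the deepest to the shallowest cells, 0.8745, was 0.9409 in distal, 0.9212 in airway-like, 0.9629 in type 2-leaning and 0.9783 in type 1-leaning cells, 0.9475 within cells of at most 14000 UMIs, 0.8728 under the stricter cell filter and 0.8179 over other genes' UMIs. The member counts that follow are given without the share of all genes at each setting, and show only how the counts move. Members 1.2-fold lower in airway-like cells numbered 10, and became 23 with other genes' UMIs as the total, 4 at resolution 0.3, 5 at resolution 0.8, 3 with classes from marker sums, 38 at 1.1-fold, 6 with cluster 4 as the distal class. Members 1.2-fold lower in type 2-leaning cells numbered 50, and became 78 with other genes' UMIs as the total, 0 with classes from marker sums, 22 with cluster 4 as the distal class. Members 1.2-fold lower in type 1-leaning cells numbered 34, and became 67 with other genes' UMIs as the total, 14 at resolution 0.8, 0 with classes from marker sums, 67 at 1.1-fold, 16 with cluster 4 as the distal class. Members 1.2-fold lower in the deepest cells numbered 23, and became 2 within distal, 9 within airway-like, 1 within cells of at most 14000 UMIs, 4 within type 2-leaning, 3 within type 1-leaning cells, 50 with other genes' UMIs as the total, 59 at 1.1-fold. Single genes crossed 1 as follows. Rps4x in airway-like cells (1.044) fell to 0.9955 over other genes' UMIs, 0.9852 with seed 1, 0.9847 with members kept and 0.9852 without cluster 4. In type 1-leaning cells Rpl5 had 0.9793 and Rpl7l1 0.9823 with classes from marker sums. The depth ratio of Rpl7l1 (1.087) was 0.9481 within distal cells, 0.7898 within type 2-leaning cells, 0.8367 within type 1-leaning cells. The causes of these shifts were not tested. No paired analysis was possible because 1 library was analysed and the labels give no replicate numbers. Depth limits the genes under 1000 CPM most, such as Rps6ka6 with 1068 UMIs. Free RNA gives every droplet some ribosomal protein UMIs, and its part in the shares was not tested.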
